A study of Mus musculus with 18 samples.

Results

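Transcription factors and their partners that are tied to the response of macrophages to interleukin-4 (IL4) are described here. The 10 are Egr2, Bhlhe40, Myc, Mycl, Klf4, Pparg, Ppargc1b, Batf3, Nfil3 and Kdm6b. They were taken by symbol from the table of 21954 genes, as factors tied to alternative activation, and all 10 passed the filter on low counts that 12514 genes passed. The RNA came from mouse macrophages grown from bone marrow. The KO groups came from cells in which the gene for the ribosomal protein L13a had been knocked out in macrophages, and the WT groups, called control in the titles, came from cells with the gene intact. Each genotype was treated with IL4, treated with IFN or left untreated, and the type of interferon is not named in the labels. The labels give neither the driver of the knockout nor the age, sex or strain of the mice. The 6 groups were KO IL4, WT IL4, KO IFN, WT IFN, KO untreated and WT untreated, with 3 libraries each, 18 in all. Libraries carry the number in their titles, 7, 8 and 9 for IL4, 4, 5 and 6 for IFN and 1, 2 and 3 for untreated cells, and values are listed in that order. The labels do not tell whether replicates stand for different mice, so p-values measure the spread between these samples, which may be technical. In RNA from whole cultures, fewer cells of a type and less RNA per cell cannot be told apart.

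The labels were checked against the data before the comparisons. Total expected counts ran from 18098711 to 28477342 per library. Rpl13a transcripts averaged 253 ± 130.0 CPM (counts scaled to a common library size) in KO untreated cells against 703 ± 73.8 CPM in WT untreated cells (SD, n = 3 each), and they overlapped between KO and WT after IL4. Over the 3 treatments Rpl13a fell in KO by 1.11 on the log2 scale (SE 0.225, adjusted p = 0.046, edgeR). Within single treatments edgeR did not call it. The log2 differences were -1.47 in untreated cells (adjusted p = 0.256), -0.90 after IFN (adjusted p = 0.772) and -0.95 after IL4. Lyz2, which encodes macrophage lysozyme, had at most 7.12 CPM in KO libraries and at least 2881 CPM in WT libraries. All 8 macrophage markers were detected, among them Adgre1 (F4/80) at 2088 ± 427 CPM in KO untreated and 1904 ± 168 CPM in WT untreated cells. Summed adipocyte markers stayed at or under 0.936 CPM, neutrophil markers at or under 2.71 CPM and lymphocyte markers at or under 4.01 CPM in every library. Fibroblast markers summed to between 30.4 and 749 CPM and markers of dividing cells to between 487 and 1750 CPM. Y-linked transcripts were present in 5 of 9 WT and 0 of 9 KO libraries. The 5 were WT untreated 1, WT IFN 4 and 5 and WT IL4 7 and 8. Genotype and the presence of Y-linked transcripts are thus partly confounded. The KO libraries of the same 5 numbers lacked them, so pairing libraries by number does not remove this difference. WT untreated libraries 2 and 3 differed far less from each other than any other pair of replicates: the chi-square of their counts, divided by its degrees of freedom, was 6.00, against 51.5 to 184 elsewhere. Their counts differed by more than sampling noise, and they were kept as separate libraries. The labels do not tell whether these 2 libraries share a source. If they do, the spread within WT untreated cells is understated in every comparison that uses them.

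IL4 binds its receptor on macrophages and acts through Janus kinases and the transcription factor STAT6, which enters the nucleus and turns on the genes of alternative activation. The regulators described here act downstream of or beside STAT6: some are themselves induced by IL4 and control later genes, others open chromatin or set the lipid metabolism of the cell. Interferon-gamma drives the contrasting, microbicidal state of macrophages. The labels do not tell whether that interferon was the one used here.

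The RefSeq promoter table of build GRCm38.p6 held 6 of the 10 regulators with 12 start sites in all, each as 250 bases before and 50 bases from the start of transcription on. Sequences are shown for the regulators with 1 start site in the table, because Batf3, Nfil3 and Klf4 rose after IL4 and Mycl fell. Capitals mark matches, on either strand, to TTCNNNNGAA (the spacing bound by STAT6), GCGNGGGCG (bound by EGR factors), CACGTG (the E-box bound by MYC and BHLHE40) or TGANTCA (bound by AP-1 dimers).
Batf3, chr1:191098164-191098463, plus strand: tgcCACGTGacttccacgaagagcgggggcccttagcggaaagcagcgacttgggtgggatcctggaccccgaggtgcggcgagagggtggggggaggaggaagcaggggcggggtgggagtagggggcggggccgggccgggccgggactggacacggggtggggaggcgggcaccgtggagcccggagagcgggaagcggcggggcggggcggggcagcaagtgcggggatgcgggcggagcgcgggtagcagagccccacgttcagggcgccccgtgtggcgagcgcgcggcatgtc
Nfil3, chr13:52980990-52981289, minus strand: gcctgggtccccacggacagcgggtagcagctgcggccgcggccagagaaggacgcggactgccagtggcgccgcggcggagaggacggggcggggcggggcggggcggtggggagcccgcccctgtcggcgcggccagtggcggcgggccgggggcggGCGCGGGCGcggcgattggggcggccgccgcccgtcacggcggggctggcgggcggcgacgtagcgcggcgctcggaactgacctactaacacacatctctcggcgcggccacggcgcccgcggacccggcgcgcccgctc
Klf4, chr4:55532426-55532725, minus strand: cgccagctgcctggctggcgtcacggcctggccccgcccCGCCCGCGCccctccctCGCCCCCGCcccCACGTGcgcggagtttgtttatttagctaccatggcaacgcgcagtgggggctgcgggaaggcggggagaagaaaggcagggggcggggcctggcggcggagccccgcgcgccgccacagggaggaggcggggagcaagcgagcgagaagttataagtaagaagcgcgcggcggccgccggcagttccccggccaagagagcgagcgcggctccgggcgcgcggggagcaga
Mycl, chr4:122995681-122995980, plus strand: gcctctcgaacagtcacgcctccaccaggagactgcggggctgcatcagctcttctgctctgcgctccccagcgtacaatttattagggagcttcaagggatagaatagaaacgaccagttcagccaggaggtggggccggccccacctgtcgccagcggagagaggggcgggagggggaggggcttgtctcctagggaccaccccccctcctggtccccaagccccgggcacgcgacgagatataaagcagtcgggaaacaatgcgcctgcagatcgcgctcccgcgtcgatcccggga
The Batf3 window held an E-box near its upstream end. Klf4 had a pair of matches to the EGR motif, CGCCCGCGC and CGCCCCCGC, followed by an E-box, and Nfil3 had 1 match to the EGR motif, GCGCGGGCG. None of the 4 motifs occurred in the Mycl window, and an E-box was found at 1 of 5 Egr2 start sites. No window of the 6 regulators held the STAT6 spacing, which occurred in 6.95% of all 32851 promoter windows. The shares of all windows were 5.55% for the EGR motif, 7.15% for the E-box and 7.81% for the AP-1 motif. These matches describe letters and are not sites of binding.

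**Figure D1:**
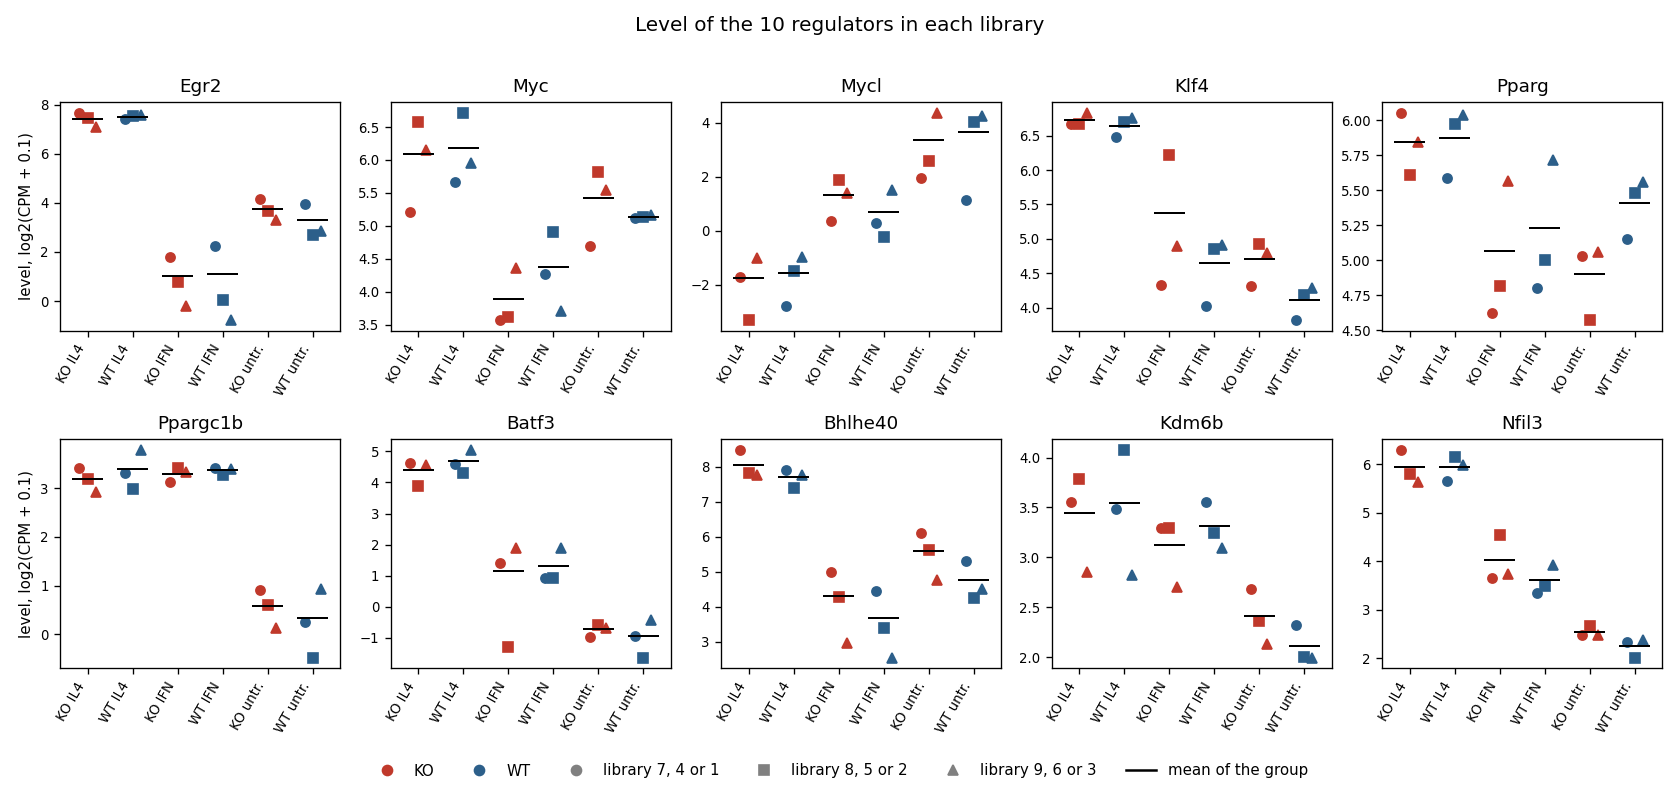
Level of the 10 regulators in each library, as log2 of CPM plus 0.1, for KO (red) and WT (blue) after IL4, after IFN and untreated. Symbols give the library number and black lines the group means. The KO and WT libraries of a treatment overlap for every gene, except Klf4, Pparg and Nfil3 in untreated cells. Within each genotype the IL4 libraries lie apart from the untreated ones for every gene except Myc, which overlaps in KO.

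Each of the 10 regulators was called in at least 1 comparison between treatments, a count for which the share of all tested genes was not computed. Pparg was called in KO alone, and its calls were lost in several alternative fits. Between genotypes 0 regulators were called without a replicate block. Levels below are CPM after TMM normalization, and a change is a log2 fold change with its standard error (SE). A gene was called, that is rose or fell, at an adjusted p under 0.05 in edgeR's quasi-likelihood test. The SE was derived from that test, as the size of the change divided by the square root of F. The 95% intervals were built from this SE, and both are approximate for genes with few counts. After IL4, 8 of 10 regulators rose and 1 fell in KO, against 5.35% of all tested genes called higher and 4.12% called lower. The regulators were chosen for their tie to alternative activation, with earlier results of these data known. Their counts beside these shares are therefore a description and no test. In WT 7 rose and 1 fell after IL4, against 4.96% and 3.53% of tested genes. The median log2 change of the 10 was 2.24 in KO and 2.73 in WT, while that of all tested genes was 0.00831 and -0.00848. After IFN, 3 rose and 3 fell in KO, where 12.6% of tested genes were called higher and 8.93% lower. The IL4 and IFN comparisons of a genotype share its untreated libraries. In WT 4 rose and 2 fell after IFN, where 11.1% were called higher and 7.55% lower. Between IL4 and IFN, 7 were higher and 0 lower after IL4 in KO (9.87% and 12.4% of tested genes), and 6 were higher and 0 lower in WT (9.28% and 11.8%).

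The choice of scale bears on these counts. Log2 changes by limma on log2(TPM + 1) were shifted against those of edgeR. The median shift over all tested genes was -0.21 after IL4 in KO, -0.12 after IL4 in WT and -0.35 after IFN in KO. For IL4 over IFN in KO the median shift was 0.14. Of all called genes, limma on log2(TPM + 1) then had 27.0% higher after IL4 in KO, against 56.5% in edgeR, 41.1% against 58.4% after IL4 in WT and 21.5% against 58.5% after IFN in KO. For IL4 over IFN in KO the share was 59.7% against 44.4%, and after IFN in WT limma on log2(TPM + 0.1) had 48.8% against 59.5%. By limma on log2(TPM + 1), 6 regulators rose and 1 fell after IL4 in each genotype, while after IFN 2 rose and 4 fell in KO and 3 rose and 2 fell in WT. The median of the 10 after IFN in KO was then -0.07, where edgeR had 0.41, so it has no direction that holds on both scales.

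**Figure D2:**
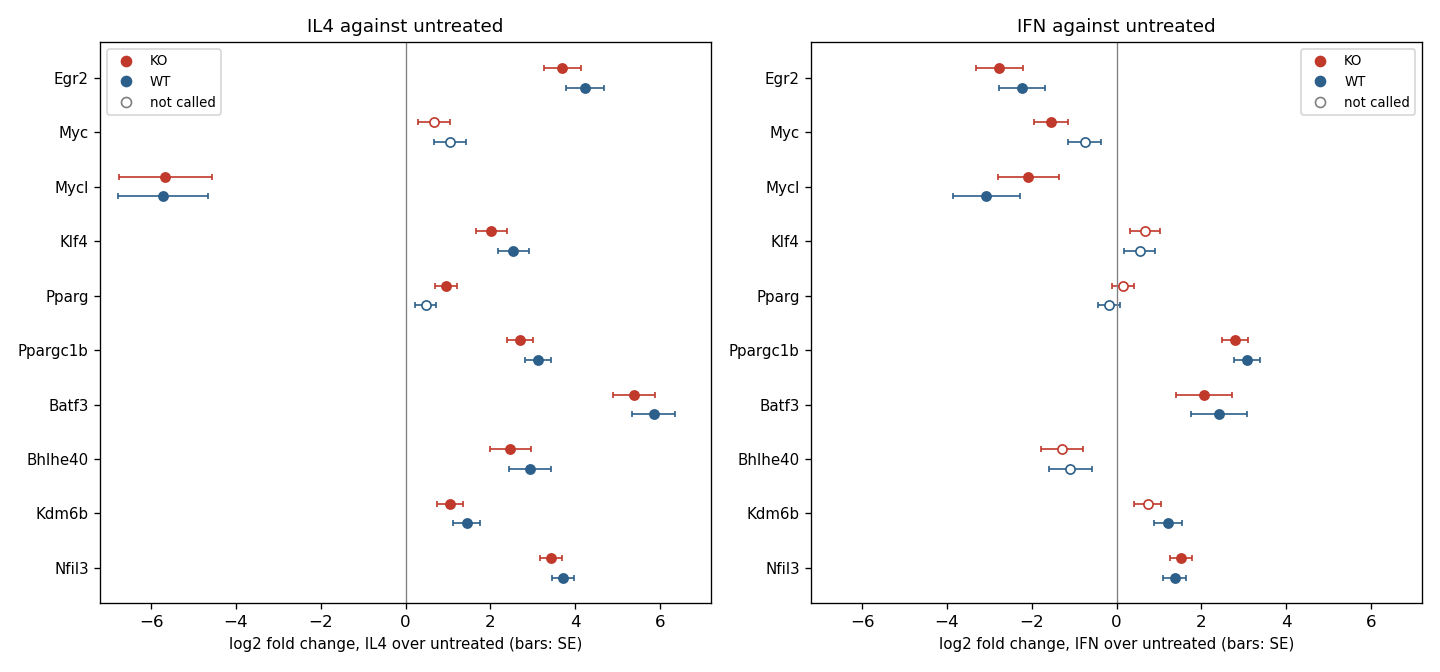
Log2 fold change of each regulator after IL4 (left) and after IFN (right) over untreated cells, in KO (red) and WT (blue), with SE bars; open points were not called. Mycl lies near -5.7 and Batf3 above 5 after IL4 in both genotypes, and Egr2 is positive after IL4 and negative after IFN.

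Egr2 and Bhlhe40 were each highest after IL4 and lowest after IFN. Positions are on build GRCm38. Egr2 (ENSMUSG00000037868, chr10:67535475-67542188, plus strand) encodes a zinc-finger factor that IL4 induces through STAT6 in mouse macrophages and that controls later genes of alternative activation. It had 205, 178 and 136 CPM in KO IL4 and 172, 184 and 193 CPM in WT IL4 libraries. After IFN it had 3.37, 1.61 and 0.773 CPM in KO and 4.64, 0.94 and 0.482 CPM in WT, and untreated cells had 17.7, 12.4 and 9.89 CPM in KO and 15.5, 6.39 and 7.07 CPM in WT. Within each genotype the 3 treatments did not overlap, and every IL4 library was far above every other. Egr2 rose after IL4, with a log2 change of 3.69 (SE 0.442, adjusted p = 8.03e-05) in KO and 4.23 (SE 0.454, adjusted p = 2.84e-05) in WT. It fell after IFN, with a log2 change of -2.77 (SE 0.551, adjusted p = 0.00189) in KO and -2.23 (SE 0.551, adjusted p = 0.00935) in WT. The IFN change in WT depended on single libraries: it was -3.74 without WT IFN 4 (adjusted p = 0.000722), and the call was lost without WT IFN 5 (adjusted p = 0.0528). IL4-treated cells held 88.3-fold more Egr2 than IFN-treated cells in KO (adjusted p = 4.7e-07) and 87.8-fold more in WT (adjusted p = 4.76e-07).

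Bhlhe40 (ENSMUSG00000030103, chr6:108660629-108666925, plus strand) encodes a basic helix-loop-helix repressor that mouse macrophages need to proliferate in response to IL4. Its levels were 357, 226 and 217 CPM in KO IL4 and 239.8, 166 and 217 CPM in WT IL4. IFN-treated cells had 32.1, 19.5 and 7.78 CPM in KO and 22, 10.3 and 5.78 CPM in WT, against 68.7, 49.3 and 27.3 CPM in KO untreated and 39.6, 19 and 22.9 CPM in WT untreated cells. All IL4 libraries were above all others, while IFN and untreated libraries overlapped in both genotypes. Bhlhe40 rose after IL4, by 2.46 (SE 0.483, adjusted p = 0.0041) in KO and 2.93 (SE 0.495, adjusted p = 0.00134) in WT. The IFN difference of -1.28 (SE 0.488, adjusted p = 0.0748) in KO and -1.09 (SE 0.503, adjusted p = 0.153) in WT was not called. It was called in KO without KO IFN 4 (adjusted p = 0.0273) or KO untreated 3 (0.038), by DESeq2 (0.0343) and by limma on log2(TPM + 1) (0.022), and in WT without WT IFN 4 (0.0465). IL4-treated cells were 13.4-fold above IFN-treated cells in KO and 16.2-fold above them in WT, both called (adjusted p = 6.09e-05 and 4.24e-05).

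Myc and Mycl encode related helix-loop-helix factors that pair with MAX. After IL4 Mycl fell in both genotypes and Myc was called in neither. Myc (ENSMUSG00000022346, chr15:61985391-61990374, plus strand) drives growth and ribosome production, and in human macrophages it is induced by IL4. It had 36.8, 95.7 and 71 CPM in KO IL4 and 50.7, 105 and 62.2 CPM in WT IL4. The IFN-treated libraries had 11.8, 12.1 and 20.4 CPM in KO and 19.3, 29.8 and 12.9 CPM in WT, and the untreated ones 25.8, 56.1 and 46.7 CPM in KO and 34.6, 35.1 and 35.6 CPM in WT. IL4 libraries overlapped untreated ones in KO but lay above them in WT, and neither IL4 difference was called, at 0.66 (SE 0.377, adjusted p = 0.332) in KO and 1.05 (SE 0.379, adjusted p = 0.111) in WT. With WT IL4 and WT untreated libraries fitted alone, including the nearly alike WT untreated 2 and 3, Myc was called in WT (adjusted p = 0.038). After IFN it fell in KO, with a log2 change of -1.54 (SE 0.402, adjusted p = 0.0119), and in WT the difference was -0.76 (SE 0.391, adjusted p = 0.206). The KO call was lost without KO untreated 2 (adjusted p = 0.0544), KO IFN 4 (0.0521) or KO IFN 5 (0.0544). Summed markers of dividing cells were 749, 761 and 1279 CPM in KO IFN and 487, 882 and 1484 CPM in KO untreated libraries, and their part in the Myc result was not tested. IL4-treated cells held more Myc than IFN-treated cells in both genotypes, with a log2 difference of 2.20 (SE 0.406, adjusted p = 0.000812) in KO and 1.81 (SE 0.395, adjusted p = 0.0033) in WT.

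Mycl (ENSMUSG00000028654, chr4:122995652-123002485, plus strand) is best known in mouse dendritic cells, which express it in place of Myc. It was the only regulator of the 10 that fell after IL4. Its level was 0.203, 0 and 0.39 CPM in KO IL4 and 0.0431, 0.251 and 0.401 CPM in WT IL4. These values rest on 5, 0 and 8 counts in KO IL4 and 1, 5 and 9 counts in WT IL4. Cells given IFN had 1.19, 3.52 and 2.56 CPM in KO and 1.11, 0.742 and 2.71 CPM in WT, while untreated cells had 3.78, 5.86 and 20.7 CPM in KO and 2.09, 16.3 and 19.1 CPM in WT. No IL4 library reached the lowest IFN or untreated library, and the untreated libraries themselves spread widely, with KO untreated 3 and WT untreated 2 and 3 far above the rest. The log2 change after IL4 was -5.67 (SE 1.09, adjusted p = 0.00244) in KO and -5.72 (SE 1.05, adjusted p = 0.00155) in WT. With so few counts the 95% interval ran over -7.96 to -3.37 in KO and -7.92 to -3.52 in WT, and on log2(TPM + 1) limma gave -2.40 in KO and -2.36 in WT, with both calls kept. After IFN Mycl fell, with a log2 change of -2.08 (SE 0.728, adjusted p = 0.0481) in KO and -3.07 (SE 0.784, adjusted p = 0.00894) in WT. The KO call rested on single libraries: without KO untreated 3 the change was -1.0 (adjusted p = 0.381), and it also missed the threshold without KO IFN 4 (0.155), KO IFN 5 (0.0712) or KO IFN 6 (0.0995), by DESeq2 (0.0612), without the filter on low counts (0.0715) or with the compared groups alone (0.106). The IL4 and IFN groups did not overlap, but the difference was not called in KO (-3.59, SE 1.39, adjusted p = 0.0738) or in WT (-2.65, SE 1.49, adjusted p = 0.247). DESeq2 called it in both (adjusted p = 0.000985 in KO and 0.0193 in WT).

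Klf4 (ENSMUSG00000003032, chr4:55527143-55532466, minus strand), a zinc-finger factor that works with STAT6 in alternative activation of mouse macrophages, rose after IL4 to nearly the same level in every library. There were 102, 101 and 114 CPM in KO IL4 and 88.7, 103 and 108 CPM in WT IL4. IFN-treated cells had 20.1, 74.1 and 29.7 CPM in KO and 16.2, 28.9 and 30.1 CPM in WT, against 19.9, 30.4 and 27.7 CPM in KO untreated and 14, 18.1 and 19.4 CPM in WT untreated cells. KO IFN 5 stood apart from the other IFN libraries, and its summed immediate early genes, at 2998 CPM, were also the highest of the IFN libraries, whose others ran from 1457 to 2087 CPM. The part of these genes, which cells switch on within minutes of a stimulus, in the Klf4 level was not tested. Klf4 rose by 2.02 (SE 0.357, adjusted p = 0.00194) in KO and 2.54 (SE 0.367, adjusted p = 0.000354) in WT after IL4. The IFN differences of 0.67 (SE 0.354, adjusted p = 0.206) and 0.54 (SE 0.364, adjusted p = 0.343) were not called, although the KO one was called without KO IFN 4 (adjusted p = 0.0477). IL4 over IFN gave 1.35 (SE 0.35, adjusted p = 0.0101) in KO, or 2.09 without KO IFN 5 (adjusted p = 5.43e-05), and 2.00 (SE 0.361, adjusted p = 0.000702) in WT. The KO call was lost with the KO IL4 and KO IFN libraries fitted alone (adjusted p = 0.0895).

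Pparg and its coactivator Ppargc1b are the lipid branch of the set. Pparg (ENSMUSG00000000440, chr6:115360951-115490399, plus strand) encodes a nuclear receptor that senses fatty acids and sustains alternative activation in mice. The ratio of its highest to its lowest group mean was the smallest of the 10, with 66.5, 48.7 and 57.5 CPM in KO IL4, 47.9, 62.7 and 65.5 CPM in WT IL4, 24.5, 28.1 and 47.4 CPM in KO IFN and 27.8, 32 and 52.4 CPM in WT IFN. Untreated libraries had 32.6, 23.7 and 33.3 CPM in KO and 35.5, 44.6 and 47.1 CPM in WT. IL4 libraries were above the untreated ones of their genotype, narrowly in WT. Pparg rose after IL4 in KO, by 0.94 (SE 0.26, adjusted p = 0.0315), and was not called in WT, at 0.47 (SE 0.257, adjusted p = 0.327). The difference of these responses was itself not called, at 0.47 (SE 0.364, adjusted p = 1.0). The KO call was lost without KO untreated 1 (adjusted p = 0.0619), KO untreated 2 (0.14), KO untreated 3 (0.0542), KO IL4 7 (0.0863) or KO IL4 9 (0.0788), and by limma on log2(TPM + 1) (0.0569). IFN left no called difference, at 0.15 (SE 0.263, adjusted p = 0.75) in KO and -0.18 (SE 0.26, adjusted p = 0.693) in WT. IL4 over IFN was called in KO, at 0.79 (SE 0.262, adjusted p = 0.0397), and not in WT, at 0.65 (SE 0.26, adjusted p = 0.0924). The KO call was lost with the compared groups alone (adjusted p = 0.0932), and without KO IFN 4 (adjusted p = 0.148), KO IFN 5 (0.15), KO IL4 7 (0.103) or KO IL4 9 (0.0771), while WT was called without WT IFN 6 (adjusted p = 0.0176). Markers of adipocytes, cells in which Pparg is the leading regulator, summed to under 1 CPM in all libraries.

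Ppargc1b (ENSMUSG00000033871, chr18:61298136-61400431, minus strand) encodes a coactivator that raises mitochondrial and fatty acid oxidation genes. It rose after both cytokines, with no called difference between them. The values were 10.5, 8.98 and 7.5 CPM in KO IL4, 9.75, 7.79 and 13.6 CPM in WT IL4, 8.65, 10.5 and 9.98 CPM in KO IFN and 10.5, 9.55 and 10.4 CPM in WT IFN. Untreated cells had 1.77, 1.43 and 0.989 CPM in KO and 1.09, 0.621 and 1.8 CPM in WT, well below every treated library. IL4 gave 2.69 (SE 0.303, adjusted p = 4.49e-05) in KO and 3.11 (SE 0.306, adjusted p = 1.22e-05) in WT, and IFN gave 2.80 (SE 0.305, adjusted p = 7.04e-06) in KO and 3.08 (SE 0.309, adjusted p = 3.59e-06) in WT. Limma on log2(TPM + 1), a scale that understates changes of genes with few reads, gave 1.56 and 1.82 for IL4 and 1.53 and 1.85 for IFN in KO and WT, all called. Set against each other, IL4 and IFN differed by -0.11 in KO (95% interval -0.64 to 0.42, adjusted p = 0.824) and 0.04 in WT (-0.48 to 0.56, adjusted p = 0.948).

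Batf3 and Nfil3, both basic leucine zipper factors, rose after IL4 and, less far, after IFN. Batf3 (ENSMUSG00000026630, chr1:191097847-191108945, plus strand) is required in mice for a class of dendritic cells that cross-present antigen. It was near 0.5 CPM in untreated cells, at 0.408, 0.572 and 0.528 CPM in KO and 0.417, 0.222 and 0.636 CPM in WT. IL4 libraries had 24.4, 14.8 and 23.6 CPM in KO and 24.1, 19.8 and 33 CPM in WT, and IFN libraries 2.54, 0.311 and 3.57 CPM in KO and 1.82, 1.78 and 3.61 CPM in WT. The IL4 libraries stood above all others, and KO IFN 5 was the only IFN library within the untreated range. It rose after IL4 by 5.38 (SE 0.504, adjusted p = 8.2e-06) in KO and 5.85 (SE 0.508, adjusted p = 3.78e-06) in WT. After IFN it rose by 2.06 (SE 0.664, adjusted p = 0.0357) in KO and 2.41 (SE 0.661, adjusted p = 0.0168) in WT. The IFN call was lost in KO without KO untreated 1 (adjusted p = 0.108), KO untreated 2 (0.076), KO untreated 3 (0.0842), KO IFN 4 (0.119) or KO IFN 6 (0.188), with the compared groups alone (0.136) and by limma on log2(TPM + 1) (0.107). In WT it was lost without WT untreated 1 (0.0576), WT untreated 2 (0.0599) or WT IFN 6 (0.0866). IL4 exceeded IFN by 3.32 (SE 0.427, adjusted p = 2.68e-05) in KO and 3.44 (SE 0.417, adjusted p = 1.57e-05) in WT.

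Markers of dendritic cells were summed in the same libraries, since Batf3 is a regulator of those cells. The 8 markers, of which 6 passed the filter, summed to 52.9, 37.9 and 49.2 CPM in KO IL4, 16.4, 31.2 and 30.7 CPM in WT IL4, 110.3, 53 and 101 CPM in KO IFN and 129, 47.8 and 97.1 CPM in WT IFN. Untreated libraries summed to 21.8, 16.4 and 15.5 CPM in KO and 9.05, 9.72 and 11.7 CPM in WT. The sum was thus highest after IFN, and within IL4-treated and untreated cells every KO library was above every WT library. Cd24a, described below, made up most of the sum in those libraries. Among all tested genes, KO and WT libraries were apart in either direction for 5.04% after IL4 and 14.1% in untreated cells. Among the defining ones, Clec9a was at 89.8, 33.3 and 81.8 CPM in KO IFN and 112, 32.2 and 80.02 CPM in WT IFN and under 1 CPM in every other library, and Xcr1 was at most 0.401 CPM after IL4. The least Clec9a of the KO IFN and WT IFN groups was in their libraries 5, and KO IFN 5 also had the least Batf3. Zbtb46, a factor of conventional dendritic cells, was at 1.95 ± 0.961 CPM in KO IL4 and 1.24 ± 0.299 CPM in WT IL4 (SD, n = 3 each), and it rose after IL4 by 2.59 (SE 0.634, adjusted p = 0.0101) in KO and 3.29 (SE 0.848, adjusted p = 0.0146) in WT. Cd24a, a surface protein of several blood cell types that is among the markers, had 46.3, 35.6 and 47 CPM in KO IL4, 14.4, 28.9 and 28.4 CPM in WT IL4, 9.01, 6.17 and 5.94 CPM in KO IFN and 3.18, 4.7 and 1.51 CPM in WT IFN. Untreated libraries had 17.7, 13.7 and 14.5 CPM of Cd24a in KO and 7.22, 8.12 and 10.7 CPM in WT. It rose after IL4, by 1.49 (SE 0.281, adjusted p = 0.00303) in KO and 1.45 (SE 0.293, adjusted p = 0.00486) in WT, and fell after IFN, with log2 changes of -1.12 (SE 0.31, adjusted p = 0.0164) in KO and -1.44 (SE 0.351, adjusted p = 0.00811) in WT. Of the 6 markers tested, 2 were called higher and 0 lower after IL4, and 2 higher and 1 lower after IFN, in both genotypes. These counts stand beside the shares of all tested genes given above for the regulators. The part of such cells in the Batf3 level was not tested.

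Nfil3 (ENSMUSG00000056749, chr13:52967209-52981073, minus strand), a repressor needed for natural killer and dendritic cell development in mice, had a separate range in each treatment. It had 78.6, 55.9 and 49.7 CPM in KO IL4 and 50.5, 71.2 and 63.5 CPM in WT IL4, then 12.4, 23.2 and 13.2 CPM in KO IFN and 10.1, 11.1 and 15.1 CPM in WT IFN. The untreated libraries had 5.48, 6.24 and 5.51 CPM in KO and 4.94, 3.95 and 5.09 CPM in WT. IL4 libraries lay above IFN libraries and these above untreated ones, with no overlap in either genotype. The log2 change after IL4 was 3.42 (SE 0.259, adjusted p = 1.04e-06) in KO and 3.72 (SE 0.264, adjusted p = 5.25e-07) in WT, and after IFN 1.51 (SE 0.26, adjusted p = 0.000555) in KO and 1.36 (SE 0.268, adjusted p = 0.00179) in WT. IL4 over IFN was 1.91 (SE 0.239, adjusted p = 2.09e-05) in KO and 2.35 (SE 0.246, adjusted p = 3.27e-06) in WT. Its calls held in every alternative fit of these 6 comparisons, although the IFN change in KO was 0.96 by limma on log2(TPM + 1).

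Kdm6b (ENSMUSG00000018476, chr11:69398508-69413675, minus strand) encodes a demethylase that removes repressive marks from histone tails and that mouse macrophages use to switch on Irf4 during alternative activation. It had 11.6, 13.7 and 7.11 CPM in KO IL4, 11.1, 16.8 and 6.96 CPM in WT IL4, 9.74, 9.74 and 6.42 CPM in KO IFN and 11.7, 9.4 and 8.43 CPM in WT IFN, against 6.33, 5.05 and 4.29 CPM in KO untreated and 4.91, 3.9 and 3.89 CPM in WT untreated cells. The treated libraries stood above the untreated ones of their genotype, by little in KO IL4 9 and KO IFN 6. Kdm6b rose after IL4, by 1.05 (SE 0.31, adjusted p = 0.0439) in KO and 1.44 (SE 0.315, adjusted p = 0.00841) in WT, and after IFN in WT, by 1.21 (SE 0.321, adjusted p = 0.014). The IFN difference in KO was 0.73 (SE 0.319, adjusted p = 0.122). After IL4 in KO the call was lost without KO untreated 1 (adjusted p = 0.0554), KO untreated 2 (0.12), KO untreated 3 (0.131), KO IL4 7 (0.0909) or KO IL4 8 (0.184), without the filter on low counts (0.052), with the compared groups alone (0.119) and by limma on log2(TPM + 1) (0.0855). In WT it was lost after IL4 without WT IL4 8 (0.0557), and after IFN without WT untreated 3 (0.0512) or WT IFN 4 (0.0613). By limma on log2(TPM + 1) the WT calls were lost after IL4 (0.0605) and after IFN (0.0627). IL4 and IFN differed by 0.32 in KO (95% interval -0.33 to 0.97, adjusted p = 0.529) and 0.23 in WT (-0.41 to 0.87, adjusted p = 0.68).

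Levels can be compared between genes on the deposited TPM scale, which divides by transcript length. After IL4 Bhlhe40 was highest, at 149.5 ± 51.3 TPM in KO and 109 ± 27.5 TPM in WT (SD, n = 3 each), and Egr2 followed at 103 ± 25 and 102 ± 5.5 TPM. Batf3 reached 59.3 ± 19.1 TPM in KO IL4 and 72.7 ± 19.8 TPM in WT IL4. Klf4 was at 60.4 ± 5.62 and 54.3 ± 2.31 TPM, Myc at 58.6 ± 21.9 and 58.8 ± 19.8 TPM, Nfil3 at 54.1 ± 15.7 and 50.5 ± 4.94 TPM and Pparg at 53.9 ± 10.7 and 51.1 ± 5.46 TPM in the same groups. In KO the means of these 5 genes ran from 53.9 to 60.4 TPM. Far below them stood Ppargc1b at 4.21 ± 0.829 and 4.57 ± 1.29 TPM, Kdm6b at 3.1 ± 0.883 and 2.72 ± 1.08 TPM, and Mycl at 0.107 ± 0.105 and 0.183 ± 0.203 TPM. In untreated cells Myc led in KO at 42.3 ± 15.5 TPM, and Pparg led in WT at 40.2 ± 3.94 TPM.

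The order of the 6 groups differed between the regulators. From high to low, Egr2 and Myc ran WT IL4, KO IL4, KO untreated, WT untreated, WT IFN and KO IFN, and Bhlhe40 KO IL4, WT IL4, KO untreated, WT untreated, KO IFN and WT IFN. Mycl had the untreated groups on top and the IL4 groups at the bottom, while Batf3, Nfil3, Kdm6b and Ppargc1b had the untreated groups at the bottom. Most neighbours in these orders overlapped, and at most 3 of 5 neighbouring pairs were apart, for Nfil3. The highest group mean was 95.5 times the lowest for Egr2, 63.2 times for Mycl, 60.2 times for Batf3 and 21.0 times for Bhlhe40, against 1.97 times for Pparg.

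The knockout was compared with WT within each treatment, to ask whether L13a loss changes the regulators. No regulator was called between genotypes in the fit without a replicate block. In untreated cells edgeR called 0 of 10 (0.0799% of tested genes), with 0 at an unadjusted p under 0.05. After IFN 0 of 10 were called (0.0639%) and after IL4 0 of 10 (0.0639%), again with 0 at an unadjusted p under 0.05. The same tests called Rpl13a, the gene knocked out, in no single treatment, which limits what the absence of calls can show. Over the mean of the 3 treatments 0 of 10 were called (0.392%), and 2 had an unadjusted p under 0.05. DESeq2 and limma called 0 of 10 in each of these comparisons. Few genes were called between genotypes at all, and the share of them that was higher in KO moved with the scale or tool: limma on log2(TPM + 1) had 54.5% of 11 in untreated cells and 25% of 8 after IFN, where edgeR had 20% of 10 and 37.5% of 8, and after IL4 DESeq2 had 56.7% of 30 where edgeR had 37.5% of 8. The median log2 fold change of the 10, KO over WT, was 0.29 in untreated cells, -0.0777 after IFN and -0.088 after IL4, against 0.00543, 0.0157 and 0.00444 over all tested genes.

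**Figure D3:**
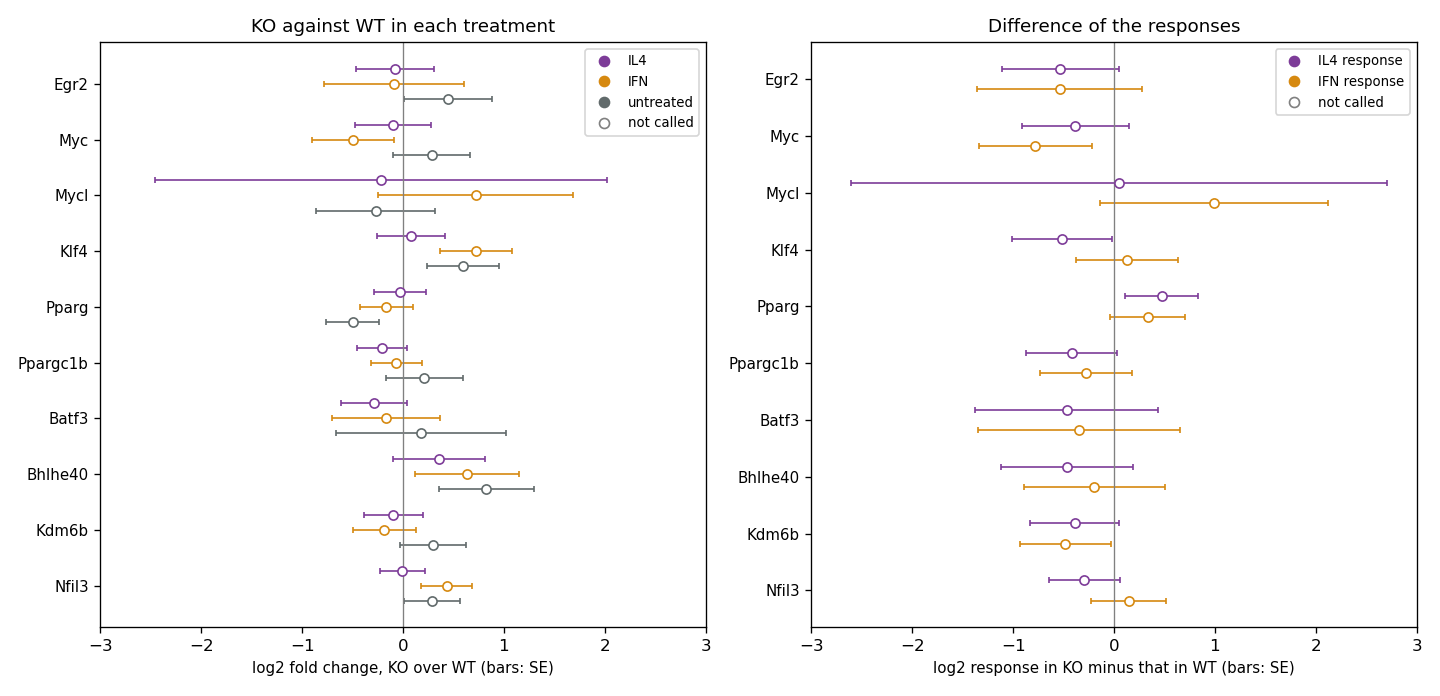
Log2 fold change of each regulator in KO over WT within IL4, IFN and untreated cells (left), and the response to IL4 or IFN in KO minus that in WT (right), with SE bars. All points are open, that is not called, and Mycl after IL4 has the widest bar, with an SE of 2.24.

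The intervals, from the fit without a replicate block, show what sizes of difference after IL4 that fit leaves possible. With libraries of the same number paired, 27 of all tested genes were called between genotypes after IL4, against 8 without the block. Intervals with the block were not computed. The KO over WT difference of Egr2 was -0.08 on the log2 scale with a 95% interval of -0.91 to 0.74. That of Klf4 was 0.08 (-0.64 to 0.80), of Nfil3 -0.01 (-0.48 to 0.47) and of Pparg -0.03 (-0.57 to 0.52). As folds, the interval ran from 0.534 to 1.67 for Egr2 and from 0.64 to 1.74 for Klf4. Bhlhe40 was at 0.36 (-0.61 to 1.33), Batf3 at -0.29 (-0.99 to 0.41), Ppargc1b at -0.21 (-0.73 to 0.31), Kdm6b at -0.09 (-0.72 to 0.53) and Myc at -0.10 (-0.89 to 0.69). For Mycl the interval ran from -4.92 to 4.48, which says nothing about its direction. No regulator's KO IL4 libraries were apart from its WT IL4 libraries, where 5.04% of tested genes were.

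In untreated cells the libraries of 3 regulators did not overlap between genotypes, as was the case for 14.1% of tested genes. The nearly alike WT untreated 2 and 3 count as separate libraries here. Klf4 was higher in KO libraries, at 19.9, 30.4 and 27.7 CPM against 14, 18.1 and 19.4 CPM in WT, with a log2 difference of 0.60 (SE 0.359, adjusted p = 0.766). Nfil3 was also higher, at 5.48, 6.24 and 5.51 CPM in KO against 4.94, 3.95 and 5.09 CPM in WT (0.29, SE 0.276, adjusted p = 0.867). Pparg was lower, at 32.6, 23.7 and 33.3 CPM in KO against 35.5, 44.6 and 47.1 CPM in WT (-0.50, SE 0.259, adjusted p = 0.711). None of these differences was called. Summed fibroblast markers were 175, 79.8 and 305 CPM in KO untreated and 662, 749 and 747 CPM in WT untreated libraries. The dendritic cell markers had a median log2 difference of 1.45 over the 6 tested, with 0 called by edgeR in untreated cells, while over the mean of the 3 treatments Cd24a was called higher in KO (0.94, SE 0.182, adjusted p = 0.0342). The part of either cell type in these differences was not tested. After IFN 0 regulators were apart, against 9.33% of tested genes. Averaged over the treatments, Bhlhe40 was 0.61 higher in KO (SE 0.278, unadjusted p = 0.0447, adjusted p = 0.468) and Klf4 0.47 higher (SE 0.203, unadjusted p = 0.0364, adjusted p = 0.443). With libraries of the same number paired as a replicate block, Bhlhe40 was called at 0.60 on the log2 scale (adjusted p = 0.0301); in untreated cells the numbers did not meet the rule for pairing.

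The response to each cytokine was then compared between genotypes. For the IL4 response 0 of 10 regulators were called (0% of tested genes), and for the IFN response 0 of 10 (0%), with 0 at an unadjusted p under 0.05 in either case and 0 by DESeq2 and by limma. Over all tested genes 249 had an unadjusted p under 0.05 for the IL4 response and 617 for the IFN response, and DESeq2 called 1 and 26. The response to IL4 in KO minus that in WT was below 0 for 8 of 10 regulators, values that rest on the same libraries. For Egr2 the difference was -0.53 (SE 0.582, adjusted p = 1.0), for Klf4 -0.52 (SE 0.494, adjusted p = 1.0), for Bhlhe40 -0.47 (SE 0.655, adjusted p = 1.0) and for Batf3 -0.47 (SE 0.911, adjusted p = 1.0). The largest difference of the IFN responses below 0 was that of Myc, at -0.78 (SE 0.558, adjusted p = 1.0). Mycl had the largest one above 0, at 0.99 (SE 1.13, adjusted p = 1.0).

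Libraries of a group differed from each other, in an order that some regulators shared and others did not. Bhlhe40 was highest in the lowest-numbered library of all 6 groups (7, 4 and 1 in both genotypes), as were 10.3% of tested genes, so this order is not particular to it. Egr2 was highest there in 5 of the 6 groups, with WT IL4 as the exception. Kdm6b was lowest in the highest-numbered library of all 6 groups, as were 2.39% of tested genes. Myc and Klf4 were lowest in the lowest-numbered library in 5 groups each. Mycl and Pparg were highest in the highest-numbered library in 5 groups each. Shares of all tested genes for an order held in 5 of the 6 groups were not computed. The widest deviations were those of Batf3 in KO IFN 5, at -1.95 from the group's mean on the scale of log2(CPM + 0.1), and of Mycl in WT untreated 1, at -2.01. The labels do not say what the numbers stand for beyond replicates. KO untreated 2 held 4187 CPM of summed immediate early genes, against 1584 and 1589 CPM in KO untreated 1 and 3, and had the most Myc and Klf4 of its group.

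**Figure D4:**
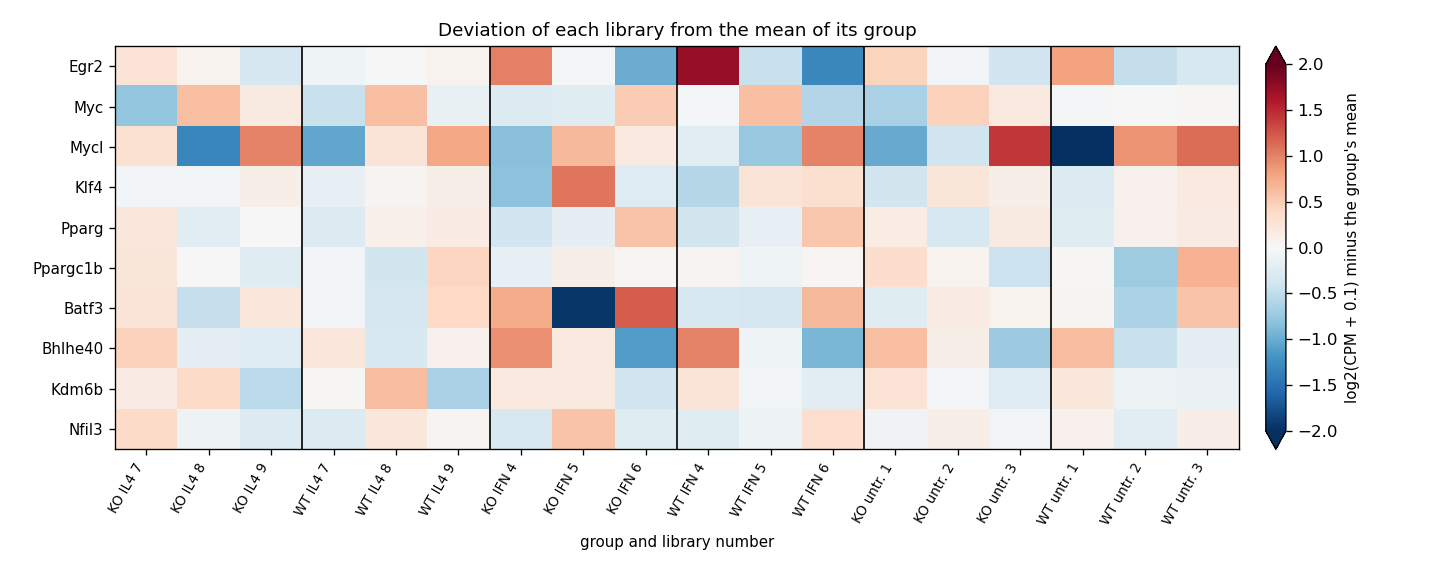
Deviation of each library from the mean of its group, in log2(CPM + 0.1), for the 10 regulators (rows) over the 18 libraries (columns, grouped by treatment and genotype); red is above and blue below the mean. Egr2 and Bhlhe40 are red in IFN library 4 and blue in IFN library 6 of both genotypes, and the darkest blue cells are Batf3 in KO IFN 5 and Mycl in WT untreated 1.

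Genes that work with the regulators were read from lists of textbook genes. The lists were chosen with earlier results of these data known. Their counts beside the shares of all tested genes are therefore a description and no test. For IL4 over untreated cells, 3 of the effector genes in KO and 4 in WT had 0 counts in 1 of the groups. Such genes pass the filter on low counts through the groups where they are high. Effector genes of alternative activation rose after IL4 in 16 of 19 tested in KO, against 5.35% of all tested genes. In WT 15 of 19 rose, against 4.96%, and 0 effectors fell in either genotype. Their median log2 change was 4.96 in KO and 5.45 in WT, the same with genes of 0 counts in a group at their lower bound, and that of all tested genes was given above. Arg1, the enzyme that cleaves arginine, was at 692 ± 453 CPM in KO IL4 and 1002 ± 531 CPM in WT IL4, against 0.277 ± 0.123 CPM in KO untreated and 0.496 ± 0.431 CPM in WT untreated cells (SD, n = 3 each). Cdh1, the adhesion protein E-cadherin, was at 42.2 ± 24.3 CPM in KO IL4 and 37.7 ± 9.55 CPM in WT IL4, against 0.34 ± 0.307 CPM in KO untreated and 0.576 ± 0.309 CPM in WT untreated cells. Both rose, Arg1 by 11.28 in KO and 11.05 in WT (adjusted p = 1.04e-06 and 6.16e-07) and Cdh1 by 6.86 and 6.02 (adjusted p = 1.94e-07 and 5.25e-07). After IFN 4 effectors rose and 2 fell in each genotype. The shares of all tested genes called higher and lower were 12.6% and 8.93% in KO and 11.1% and 7.55% in WT. Among these effectors Tgm2, a transglutaminase, rose by 2.84 (SE 0.301, adjusted p = 5.29e-06) in KO and 3.04 (SE 0.304, adjusted p = 3.36e-06) in WT. Mrc1, the mannose receptor, fell after IFN, with a log2 change of -4.15 (SE 0.407, adjusted p = 2.31e-06) in KO and -2.85 (SE 0.378, adjusted p = 5.91e-05) in WT.

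**Figure D5:**
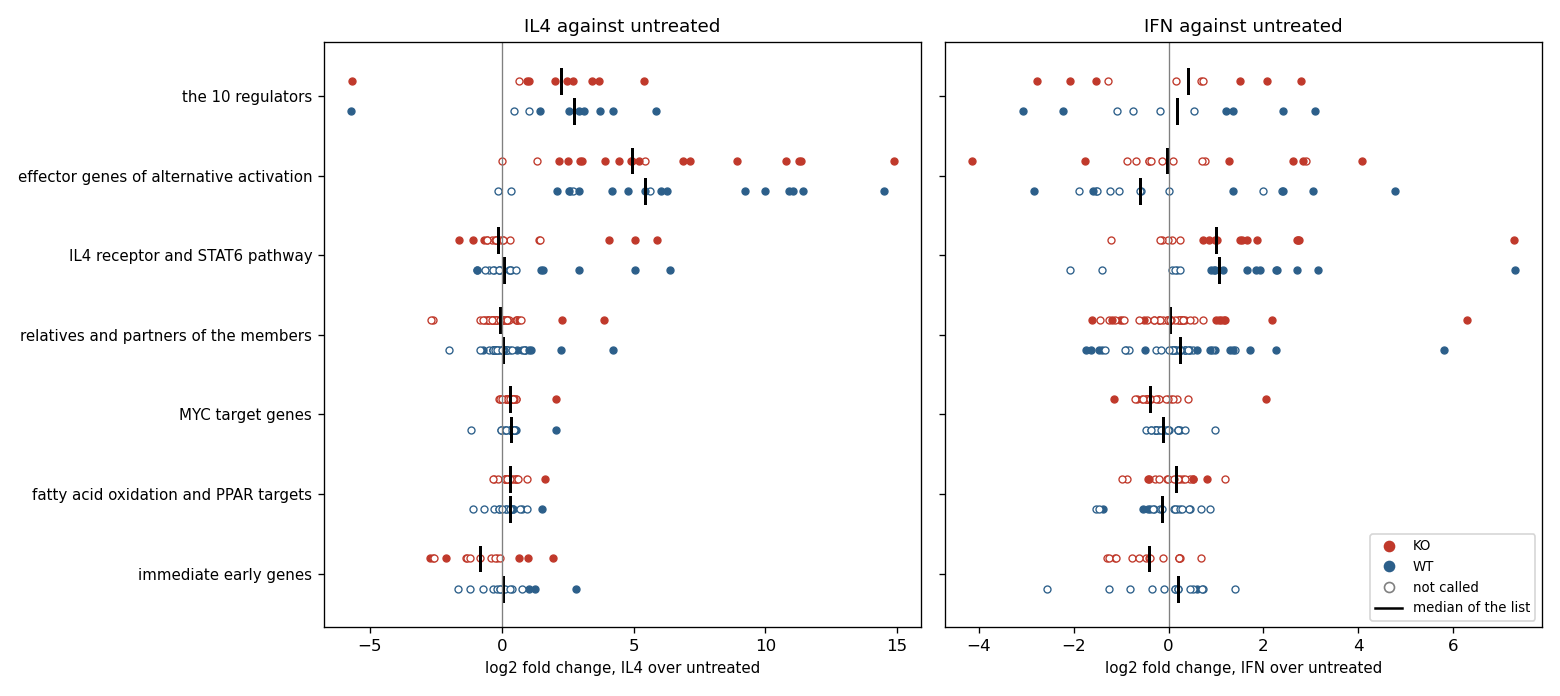
Log2 fold change after IL4 (left) and after IFN (right) over untreated cells of the 10 regulators and of the genes of 6 lists, in KO (red) and WT (blue); open points were not called, black bars are medians, genes with 0 counts in 1 group stand at the bound given by 3 counts and those without a fold are left out. Effector genes lie mostly to the right after IL4 with medians of 4.96 and 5.45, while genes of the receptor pathway lie mostly to the right after IFN.

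Genes of the IL4 receptor and STAT6 pathway were called after both cytokines. Of 18 tested, 4 rose and 3 fell after IL4 in KO and 5 rose and 1 fell in WT, while 12 rose and 0 fell after IFN in each genotype. Their median log2 change was -0.14 in KO and 0.0997 in WT after IL4, and 1.00 and 1.06 after IFN. The shares of all tested genes called higher and lower were 5.35% and 4.12% after IL4 in KO and 4.96% and 3.53% in WT. After IFN these shares were 12.6% and 8.93% in KO and 11.1% and 7.55% in WT. After IL4 the feedback inhibitor Cish, a target of STAT signalling, rose by 5.89 (SE 0.315, adjusted p = 5.37e-08) in KO and 6.38 (SE 0.342, adjusted p = 5.51e-08) in WT. Socs1, another inhibitor of Janus kinases, rose by 5.04 (SE 0.503, adjusted p = 1.68e-05) and 5.06 (SE 0.513, adjusted p = 1.72e-05), and Jak2, one of these kinases, by 1.43 and 1.5 (adjusted p = 0.00021 and 0.000126). After IFN Socs1 rose by 7.28 (SE 0.53, adjusted p = 9.28e-08) in KO and 7.30 (SE 0.537, adjusted p = 1.15e-07) in WT, and Il4ra, the receptor chain that binds IL4, by 1.85 (SE 0.201, adjusted p = 6.44e-06) and 1.85 (SE 0.201, adjusted p = 7.79e-06). Stat6 itself, named outside the rule for named genes, was at 233 ± 54.6 CPM in KO IL4 and 217 ± 34 CPM in WT IL4, against 271 ± 36.3 CPM in KO untreated and 230.5 ± 31.2 CPM in WT untreated cells (SD, n = 3 each), with log2 differences of -0.22 (SE 0.184, adjusted p = 0.562) and -0.09 (SE 0.184, adjusted p = 0.855).

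Of 42 relatives and partners of the regulators tested, 3 rose and 2 fell after IL4 in KO and 7 rose and 1 fell in WT, with median log2 changes of -0.0697 and 0.0387. Of all tested genes 5.35% were called higher and 4.12% lower after IL4 in KO, which the KO counts are near, and 4.96% and 3.53% in WT. Irf4, which Kdm6b switches on and which pairs with BATF factors on DNA, rose by 3.90 (SE 0.444, adjusted p = 5.27e-05) in KO and 4.23 (SE 0.462, adjusted p = 2.88e-05) in WT. Klf9, a relative of Klf4, rose by 2.29 (SE 0.364, adjusted p = 0.000792) and 2.26 (SE 0.381, adjusted p = 0.00123), and Jun, an AP-1 factor, by 0.65 (SE 0.184, adjusted p = 0.0352) and 1.03 (SE 0.186, adjusted p = 0.00202). After IFN 7 rose and 5 fell in KO, and 8 rose and 6 fell in WT, where the shares of all tested genes were 12.6% higher and 8.93% lower in KO and 11.1% and 7.55% in WT. Batf2, a relative of Batf3, rose after IFN by 6.29 (SE 0.276, adjusted p = 2.05e-10) in KO and 5.81 (SE 0.27, adjusted p = 4.26e-10) in WT, while its differences after IL4 were 0.56 and 0.07 and not called. With limma on log2(TPM + 1) 4 of the 42 rose and 11 fell after IFN in KO. Irf8, an interferon regulatory factor, rose after IFN by 2.19 (SE 0.304, adjusted p = 7.45e-05) in KO and 2.27 (SE 0.305, adjusted p = 6.3e-05) in WT. Among the partners of Myc, Max rose after IFN by 1.18 (SE 0.141, adjusted p = 1.74e-05) in KO and 0.98 (SE 0.141, adjusted p = 0.00012) in WT. Mxd4 and Mxi1, which compete with MYC for MAX, fell after IFN, Mxd4 with log2 changes of -1.03 (SE 0.175, adjusted p = 0.000507) in KO and -1.40 (SE 0.178, adjusted p = 3.68e-05) in WT, and Mxi1 with -0.99 (SE 0.172, adjusted p = 0.000605) in KO and -1.46 (SE 0.173, adjusted p = 1.89e-05) in WT.

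Of 22 MYC targets tested, 1 rose after IL4 in KO and 3 in WT, and after IFN 1 rose and 3 fell in KO and 0 were called in WT. After IL4 5.35% of all tested genes were called higher and 4.12% lower in KO, and 4.96% and 3.53% in WT. After IFN the shares were 12.6% and 8.93% in KO and 11.1% and 7.55% in WT. The count of MYC targets that rose after IL4 in KO is near its share. The median log2 change of the MYC targets was 0.31 in KO and 0.37 in WT after IL4, and -0.38 in KO and -0.11 in WT after IFN. Tfrc, the transferrin receptor, was at 664 ± 109 CPM in KO IL4 and 386 ± 78.6 CPM in WT IL4, against 159 ± 42.3 CPM in KO untreated and 93.9 ± 4.02 CPM in WT untreated cells (SD, n = 3 each), a rise of 2.07 (SE 0.278, adjusted p = 0.00021) and 2.04 (SE 0.279, adjusted p = 0.000212). After IFN in KO it fell, with a log2 change of -1.15 (SE 0.275, adjusted p = 0.00657), and so did Ncl, the nucleolar protein nucleolin, with -0.66 (SE 0.189, adjusted p = 0.0199). On log2(TPM + 1) limma had 13 of the 22 lower after IFN in KO. IL4 over IFN gave 10 MYC targets higher and 1 lower in KO, against 9.87% and 12.4% of all tested genes. In WT it gave 4 higher and 1 lower, against 9.28% and 11.8%. Of 19 genes of fatty acid oxidation and PPAR targets, 4 rose after IL4 in KO and 2 in WT, with 0 lower and medians of 0.30 and 0.31. Cd36, a fatty acid transporter and PPAR target, rose by 1.65 (SE 0.248, adjusted p = 0.000506) in KO and 1.51 (SE 0.247, adjusted p = 0.000944) in WT. After IFN 2 of the 19 rose and 2 fell in KO, and 0 rose and 3 fell in WT. The KO counts after IFN are near the shares of all tested genes, 12.6% called higher and 8.93% called lower. By limma on log2(TPM + 1) 0 rose and 7 fell after IFN in KO, and by DESeq2 7 rose after IL4 in WT. Immediate early genes, 15 tested, had 3 higher and 2 lower after IL4 in KO and 3 higher and 0 lower in WT. Their medians were -0.81 and 0.0346, and the shares of all tested genes after IL4 are those given above. The set held Atf3, a stress-induced leucine zipper factor, which rose by 1.01 (SE 0.261, adjusted p = 0.0216) and 1.27 (SE 0.262, adjusted p = 0.00555), and Fos, the AP-1 partner of Jun, which fell in KO (-2.73, SE 0.577, adjusted p = 0.00674). Fos was at 203, 49.8 and 75.7 CPM in KO IL4 and 350.0, 1396 and 438 CPM in KO untreated libraries, with KO untreated 2 far above the other two. Without KO untreated 2 the median of the list was -0.10, 2 were higher and 1 lower, Fos was at -1.85 (edgeR, adjusted p = 0.0407) and the call of Atf3 was lost (adjusted p = 0.0594). Atf3 also lost its call without KO untreated 3 (adjusted p = 0.0781) or KO IL4 7 (adjusted p = 0.0879). Over the 6 fits that each leave out 1 of these KO libraries, which were added after seeing the data, 0 to 2 of the list were higher and 1 to 5 lower, and Fos was called in each.

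Between genotypes edgeR called 0 of the 132 tested genes of these 6 lists. The number with an unadjusted p under 0.05 was 2 after IL4, 8 after IFN, 16 in untreated cells and 20 over the mean of the 3 treatments, and 4 for each difference of responses. DESeq2 called 0 within each treatment and for the responses, and 4 over the mean of the treatments, Il4ra, Chil3, Klf9 and Acadl, which are named for this reason. By limma on log2(TPM + 1) 0 were called in all 6 comparisons.

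The tested genes whose level over the 18 libraries was most like that of a regulator were found by Pearson's r of log2 CPM, the 3 highest for each. The libraries fall into 6 groups and r is high for genes that follow these groups, so it describes these data and carries no p. For Egr2 they were Fam20c (r = 0.990), Atp6v0d2 (r = 0.983) and Vat1 (r = 0.981), and for Bhlhe40 Vwf (r = 0.983), Ldlrad3 (r = 0.979) and Egr2 (r = 0.978). For Nfil3 they were Cish (r = 0.973), Anxa4 (r = 0.966) and Flt1 (r = 0.963), and for Klf4 Anxa4 (r = 0.959), Capg (r = 0.935) and Nfil3 (r = 0.934). Batf3 was most like Traf5 (r = 0.962), Slc7a2 (r = 0.949) and Arg1 (r = 0.945). Ppargc1b was most like Jak2 (r = 0.944), Pfkp (r = 0.940) and Qpct (r = 0.937), Mycl most like Tlr2 (r = 0.953), Pid1 (r = 0.937) and Ppm1l (r = 0.937) and Myc most like Ncl (r = 0.955), Pum3 (r = 0.950) and Plaur (r = 0.948). The likeness was lowest for Kdm6b, with Plek (r = 0.908), Nek6 (r = 0.881) and Slc10a3 (r = 0.872), and for Pparg, with Clec4b1 (r = 0.927), Fuom (r = 0.885) and Clec10a (r = 0.856).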

How the data were processed

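Poly-A RNA was sequenced, and the labels' protocols name both a directional and a non-directional preparation, so antisense reads cannot be told apart here. Bowtie 0.12.8, RSEM 1.2.3 and build mm10 are listed, per the submitters' processing notes. The authors deposited expected counts per gene, TPM and a median-normalized TPM signal, per the file headers, and all columns were matched to samples by name, with 0 left over. Of the expected counts 21.5% were not whole, and they were rounded. In R 4.3.3, edgeR 4.0.16 kept 12514 of 21954 genes (filterByExpr), applied TMM factors and fitted 1 coefficient per group over 18 libraries (quasi-likelihood, robust, common biological coefficient of variation 0.301). All 12 comparisons used Benjamini-Hochberg adjustment over all tested genes, and called means an adjusted p under 0.05. The alternatives were DESeq2 1.42.0, limma 3.58.1 on log2 values with pseudocounts of 1 and 0.1, and other filters and scalings. Further ones were a Y-linked covariate, a replicate block and leaving out each library. The edgeR step was also run on simulated counts with changes set in KO IL4 alone. Those counts held no effect shared between libraries, so the run does not bear on paired or nearly alike libraries.

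Named genes were the 10 regulators, up to 3 called genes without overlap per list and comparison, the 3 most alike genes, Rpl13a and Lyz2. The regulators and the lists were chosen with earlier results of these data known. Where KO and WT share library numbers, deviations from the group means correlated between same-numbered libraries at 0.586, 0.323 and 0.449 for IL4 and 0.296, 0.135 and 0.276 for IFN, which pairs them by the rule that every pair exceeds 0.1. In untreated cells the values were 0.597, 0.0417 and 0.358, and the numbers were not taken as pairs. Gene positions are from GENCODE vM21 on GRCm38 and promoters from RefSeq on GRCm38.p6.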

Additional observations from a re-analysis of the deposited data

How the results depend on the processing

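Of 42 called values of the regulators, 630 alternative values were computed: 575 kept their direction and their call, 55 kept the direction and lost the call, and 0 changed sign. The losses fell on Kdm6b, Pparg, Batf3, Myc, Mycl, Egr2 and Klf4, and those from leaving out a library are given with each gene. By limma on log2(TPM + 0.1) calls were lost for Kdm6b (adjusted p = 0.102 after IL4 in KO, 0.0553 after IL4 in WT and 0.0515 after IFN in WT), Pparg (0.059 after IL4 in KO), and Batf3 (0.131) and Mycl (0.0605) after IFN in KO. After IFN in KO limma on median-normalized TPM also lost Batf3 (0.0773) and Mycl (0.129), and the earlier quasi-likelihood method lost Mycl (0.114). Of 78 values without a call, 1459 alternatives gave 18 calls and 126 changes of sign. With the replicate block, pairing libraries of the same number, 1 regulator was called in KO against WT over the mean of the 3 treatments, Bhlhe40 at 0.60 on the log2 scale (adjusted p = 0.0301), where 0 were called without it; the block changed no other call of a regulator between genotypes. In untreated cells not every library correlated best with its own number. Over all genes, KO against WT gave 83, 42, 30 and 201 calls by DESeq2 and 96, 24, 27 and 246 with the block, against 10, 8, 8 and 49, for untreated, IFN, IL4 and their mean. A Y-linked covariate gave 39, 5 and 3 within the treatments, the compared groups alone 1 in each, and the earlier quasi-likelihood method, added after seeing the data, 4 in untreated cells. With the compared groups alone 422 genes were called for IL4 in KO, against 1186, and 1784 for IL4 over IFN in KO, against 2784. Leaving out 1 library at a time gave 1 to 11 calls for KO against WT in untreated cells (1 without WT untreated 2, 2 without KO untreated 2, 3 without KO untreated 1, 6 without WT untreated 3). After IFN it gave 2 to 6 (2 without library 5 of either genotype, 3 without WT IFN 4, WT IFN 6 or KO IFN 4), after IL4 1 to 4 (1 without any KO IL4 library, 2 without WT IL4 8 or 9, 4 without WT IL4 7), and for the mean 33 to 68. For IL4 over untreated it gave 734 to 1153 in KO (734 without KO untreated 2) and 645 to 950 in WT, against 1063 (645 without WT IL4 8, 656 without WT untreated 3, 704 without WT untreated 2). For the difference of IFN responses it gave 0 to 9 (9 without WT IFN 6). DESeq2 called 1 and 26 genes for the differences of responses, against 0 and 0. The cause was not tested, except that fewer libraries enter the fits of the compared groups alone and those that leave out a library. Depth limits Mycl after IL4, which rests on 0 to 9 counts per library.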
